A study of Mus musculus with 29 samples.

Results

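The sites described here are 926 places in the mouse genome where a peak was called in at least 7 of 9 ChIP-seq peak lists, out of 78408 places with a peak in any list. ChIP-seq sequences the DNA that an antibody pulls down with a protein, and a peak list gives the positions where that DNA piles up above an input control. Windows of 300 bp around the summits of all peaks were joined where they shared 1 bp or more, and members were chosen by the number of lists with a peak. Their membership, fold enrichment and local background come from the calls that selected them, so these are given as descriptions. What was compared with other sites is what the choice did not use, namely position, base composition, sequence patterns and duplication.

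Mouse embryonic stem cells of the parental line A2loxCre carried a doxycycline-inducible cassette with a Venus reporter and 1, 2 or 3 transcription factors of inner ear hair cell development. They were grown as embryoid bodies (EBs), aggregates of differentiating stem cells, and collected at day 6 after 48 h with 2 µg/ml doxycycline. Atoh1 was precipitated through a Flag tag in iAtoh1 (Atoh1 alone), iG+A (Gfi1 and Atoh1), iP+A (Pou4f3 and Atoh1) and iGPA (Gfi1, Pou4f3 and Atoh1). Pou4f3 was precipitated through a Myc tag in iPou4f3 (Pou4f3 alone), iG+P (Gfi1 and Pou4f3), iP+A and iGPA. Gfi1 was precipitated with an antibody to the protein itself, in iGPA only. Each group had 2 libraries, made from different clones of a line per the series design, except Gfi1 with 1 library. In all there were 17 ChIP and 12 input libraries from 6 lines. Each list was called on merged libraries, so no value here has a spread between replicates. A ChIP with either tag antibody in cells without that tagged factor, or without doxycycline, was not analysed here. Whether a site would be called by the antibody alone was therefore not tested.

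Atoh1 is a basic helix-loop-helix factor that pairs with E proteins and binds E-boxes, short palindromic sequences. Pou4f3 is a POU-homeodomain factor that binds an AT-rich element. Gfi1 is a zinc finger protein, best known as a repressor. Promoters of broadly expressed genes commonly lie in CpG islands, stretches rich in CG dinucleotides that are open in most cell types. Open promoters and repeated sequence are known sources of signal in many ChIP-seq experiments, whichever antibody is used.

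The members were few. Of all joined sites, 36750 had a peak in 1 list, 15478 in 2, 10181 in 3, 10767 in 4, 2706 in 5 and 1600 in 6. The members comprised 630 sites in 7 lists, 241 in 8 and 55 in all 9. Just outside the threshold, the 1600 sites in 6 lists had a median fold enrichment of 3.804, against 3.74 for the 630 sites in 7 lists. A Gfi1 peak was present at 15.1% of the former and 40% of the latter.

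Sequences of 100 bases around the centre, the median summit, are shown first for 2 sets of members in which 1 tagged factor was called only where the other was induced. In the set of 128, all 4 Myc lists and the Gfi1 list had a peak, while the Flag lists of iAtoh1 and iG+A had none. The 4 shown are among those with the highest mean rank of fold that hold both patterns. Capitals mark a loose E-box, which is CAGATG on either strand or a palindrome, CAGCTG in some sites and CATATG in others, or the Pou4f pattern, ATAATTAAT with at most 1 mismatch on either strand. All are written on the plus strand of mm9.
Ccl1 intron, chr11:82109068-82109167: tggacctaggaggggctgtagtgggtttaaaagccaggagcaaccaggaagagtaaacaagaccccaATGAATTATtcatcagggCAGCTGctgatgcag
Nfic intron, chr10:80866433-80866532: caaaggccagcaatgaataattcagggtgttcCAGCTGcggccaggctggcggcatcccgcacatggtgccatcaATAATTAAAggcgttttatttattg
Upstream of Pccb, chr9:100939292-100939391: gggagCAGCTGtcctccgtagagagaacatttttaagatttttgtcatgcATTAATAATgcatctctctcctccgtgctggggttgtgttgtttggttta
Cacna1e intron, chr1:156523905-156524004: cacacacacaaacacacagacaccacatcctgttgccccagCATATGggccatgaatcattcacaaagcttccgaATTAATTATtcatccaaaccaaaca

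The opposite set held 20 members, with all 4 Flag lists and the Gfi1 list but no Myc peak in iPou4f3 or iG+P. The 3 shown hold a strict E-box, a longer form that also limits which bases may flank it, within these 100 bases. Capitals mark the strict or the loose E-box.
Intergenic, chr10:111106821-111106920: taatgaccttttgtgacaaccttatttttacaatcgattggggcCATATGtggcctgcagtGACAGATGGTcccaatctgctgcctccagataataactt
Intergenic, chr9:54931172-54931271: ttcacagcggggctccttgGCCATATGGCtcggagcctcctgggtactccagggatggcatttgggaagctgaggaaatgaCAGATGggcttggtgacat
Intergenic, chr9:46806515-46806614: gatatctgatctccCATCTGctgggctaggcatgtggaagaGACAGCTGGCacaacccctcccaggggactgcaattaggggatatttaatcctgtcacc

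The remaining sequences stand for members of other kinds. The Mll1 promoter is CpG-rich, and capitals mark a GC box (GGGCGG, either strand). It also holds a loose E-box, CATATG, which is left in small letters. In the Nhlh1 promoter, which is not CpG-rich, capitals mark a loose E-box. The central 250 bp of the Nhlh1 site held a strict E-box. The intergenic chr3 site and the Cntnap5c intron are the highest-ranked distal members with neither a strict E-box nor a Pou4f pattern, and capitals mark a run of 53 bases that both hold.
Mll1 promoter, chr9:44689474-44689573: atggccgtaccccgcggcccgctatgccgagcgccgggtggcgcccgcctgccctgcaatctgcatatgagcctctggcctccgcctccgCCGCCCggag
Nhlh1 promoter, chr1:173987885-173987984: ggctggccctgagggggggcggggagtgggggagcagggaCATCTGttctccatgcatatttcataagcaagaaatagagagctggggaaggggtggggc
Intergenic, chr3:58075495-58075594: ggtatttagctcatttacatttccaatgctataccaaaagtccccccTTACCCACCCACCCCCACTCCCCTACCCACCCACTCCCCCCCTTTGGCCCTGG
Cntnap5c intron, chr17:57995426-57995525: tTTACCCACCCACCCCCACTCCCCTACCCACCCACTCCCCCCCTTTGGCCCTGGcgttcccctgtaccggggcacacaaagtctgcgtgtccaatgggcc

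The 9 lists contributed unequally. Among the Flag lists, members had a peak in 673 cases for iAtoh1, 740 for iG+A, 886 for iP+A and 905 for iGPA. For comparison, 19.2%, 25.3%, 23.5% and 32.6% of all joined sites had a peak in these lists. Among the Myc lists the counts were 806 (iPou4f3), 858 (iG+P), 840 (iP+A) and 731 (iGPA), against 28.3%, 40.5%, 21.4% and 23.8% of all sites. A Gfi1 peak was called at 394 members, 42.5% of them, against 3.81% of all sites, and members made up 13.2% of the sites in the Gfi1 list. These counts follow from the rule, and nothing is read from them.

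The median fold over local background ranged from 3.61 in iG+P to 4.496 in iGPA Atoh1, beside list medians of 2.96 and 3.45. In the iGPA Pou4f3 list the members' median of 4.07 lay close to the 4.08 of the whole list. The same held for Gfi1, with 4.33 at members and 4.40 in the list. The highest fold at any member was 72.1, in iGPA Atoh1 at a Dnahc2 intron of the set of 20.

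The combinations of antibodies fell into a few common forms. The most frequent was 4 Flag and 3 Myc lists without Gfi1, at 242 members. Another 154 had all 8 tagged lists without Gfi1, 143 had 2 Flag, 4 Myc and Gfi1, 136 had 3 Flag and 4 Myc, and 67 had 4 Flag, 2 Myc and Gfi1. In the group of 143, 128 lacked exactly iAtoh1 and iG+A, the Flag lists of lines without Pou4f3. In the group of 67, 20 lacked iPou4f3 and iG+P, the Myc lists of lines without Atoh1, and 20 others lacked iPou4f3 and iGPA.

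Members lay near gene starts more often than other sites. Of the 926 members, 36.3% (33.2% to 39.5%, exact 95% interval) had their centre within 1000 bp of an annotated transcription start, compared with 19.7% of sites in 1 list, a difference of 16.6 percentage points (Newcombe 95% interval 13.5 to 19.8). All such intervals cover counting error only, and sites are not replicates of a condition. The difference from sites in 4 to 6 lists was 13.2 points (10.1 to 16.4). Much of that difference lay in the sites with 4 lists, of which 2859 had only Flag and 5123 only Myc peaks among 10767. Against sites in 5 or 6 lists, which need more than 1 antibody, it was 4.35 points (1.01 to 7.79). Width also moved with this result, because members had a median width of 596.5 bp after joining. Among sites at most 600 bp wide the difference from 1 list was 4.88 points, with a lower bound of 1.18, and for high CpG content it was 8.49 points (5.40 to 12.1). The part of width in these results was not tested further.

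**Figure D1:**
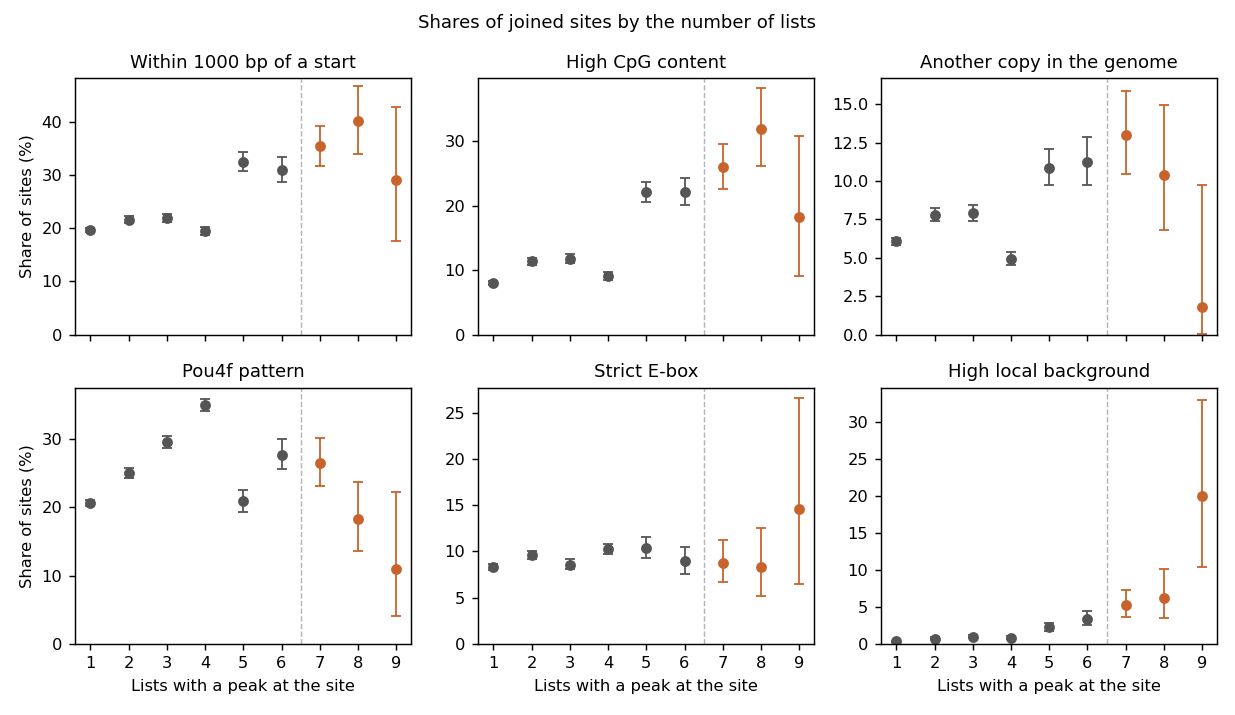
Each panel plots, for joined sites with a peak in 1 to 9 lists (x axis), the share in percent (y axis) with the named feature. Points are shares, bars exact 95% intervals and orange points the members. Shares near a start were 19.7% at 1 list and 36.3% over the members, and high local background reached 20% of the 55 sites in all 9 lists. At these 55, 29.1% (17.6% to 42.9%) lay near a start, 18.2% had high CpG content and 1.82% another copy. At the 241 sites in 8 lists these shares were 40.2%, 32.0% and 10.4%.

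High CpG content was defined as over 55% GC with a CpG ratio, observed over expected, above 0.75 in 500 bp, and 27.1% of members (24.3% to 30.1%) met it, against 7.96% of sites in 1 list and 12.8% in 4 to 6 lists. Sites in 5 or 6 lists met it at 22.1%, and the difference from them was 4.97 points (1.93 to 8.17). Of the 336 members near a start, 68.2% had high CpG content, beside 51.6% of near-start sites in 4 to 6 lists (difference 16.6 points, 11.15 to 21.6) and 32.8% of the starts of all protein-coding genes. Away from starts it was 3.73% of 590 members. The nearest start belonged to a protein-coding gene at 293 of the 336, to a lincRNA at 15 and to an rRNA gene at 6.

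Starts of 2 genes on opposite strands lay within 1000 bp at 7.45% of members and 2.85% of sites in 1 list, and the 95% interval of the difference ran from 3.07 to 6.48 points. Among sites at high-CpG starts alone the shares were 22.3% and 19.3%, with a difference of 2.95 points (-2.20 to 8.95). The centre lay in a UTR at 12.3% of members and 5.28% of sites in 1 list. Introns held 34.2% and intergenic DNA 46.3% of members.

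At the 229 members at high-CpG starts a GC box, bound by the Sp and Klf families, was present at 72.5%, beside 66.1% of high-CpG start sites in 1 list (difference 6.37 points, -0.00740 to 12.0) and 76.5% of all 8119 high-CpG gene starts. The ETS pattern (CCGGAAG) was present at 12.7% and the YY1 pattern (AAGATGGCG) at 4.37%, and in neither case did the interval of the difference from sites in 4 to 6 lists leave 0. The loose E-box stood apart from 1 list, at 48.5% against 17.0% (difference 31.5 points, 24.9 to 38.0), and 16.3% of all high-CpG gene starts. Sites in 4 to 6 lists held it at 42.8%, 5.69 points lower (-1.10 to 12.5). The strict E-box was present at 3.06% of these members. The Pou4f pattern was present at 4.80%, against 0.341% in 1 list and 1.23% in 4 to 6 lists, and was 3.58 points above the latter (1.39 to 7.19). Windows 1000 bp from these members held it more often than the centres, at 9.17%.

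The Flag and Myc summits often did not coincide at these promoters. The median Flag summit and the median Myc summit lay a median of 145.5 bp apart at high-CpG starts, and within 50 bp of each other at 42 of 229 (18.3%, 13.5% to 24.0%). At distal members with a strict E-box or a Pou4f pattern they were within 50 bp at 111 of 228, or 48.7% (42.0% to 55.4%). At 80 of the 229 promoter sites they were over 200 bp apart. Distal members with neither pattern had them within 50 bp at 49.0%. The median joined width was 743 bp at high-CpG starts, 465.5 bp at distal members with a pattern and 558 bp at those with neither. Only wide sites can hold summits far apart, and the part of width in this difference was not tested.

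The high-CpG member with the highest mean rank was the start of Mll1, a histone H3 lysine 4 methyltransferase. Its fold was 7.82, 6.27, 7.53 and 8.61 in the Flag lists of iAtoh1, iG+A, iP+A and iGPA, and 8.67, 9.52, 8.15 and 8.74 in the Myc lists, ordered as iPou4f3, iG+P, then iP+A, then iGPA. The Gfi1 list gave 7.26. The values lay between 6.27 and 9.52, and the Flag and Myc summits were 26.5 bp apart. The site was named for its mean rank over all the lists, so high values in each follow largely from that choice.

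The start of Cd2ap, an adaptor protein of the cytoskeleton, had Flag folds of 5.37, 6.94, 7.96 and 13.2 in the same order. Its Myc folds were 5.59, 4.597, 3.40 and 4.51. Its Flag and Myc summits were 704.5 bp apart within a joined site of 1164 bp. At the start of Hlcs, the biotin ligase of carboxylases, they were 548 bp apart. The lincRNA start 3110083C13Rik leaned the other way, with 20.4 in iPou4f3 Myc and 3.76 to 8.26 in the Flag lists.

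Nhlh1 was the leading member at a start without high CpG content, 231 bp upstream of this neuronal basic helix-loop-helix gene. Its Flag fold was 3.05 in iAtoh1 and 3.60 in iG+A, then 21.4 in iP+A and 40.9 in iGPA. The Myc folds, for iPou4f3, iG+P and then the iP+A and iGPA lines, were 13.9, 16.3, 13.9 and 34.8. It counted as present in all 9 lists, with Gfi1 at 3.27, but the Flag values differed widely between lines with and without Pou4f3. Merged lists give no error for that difference.

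Sall4, a zinc finger gene of pluripotency, showed a related form at its start. No Flag peak was kept in iAtoh1 or iG+A, and the Flag folds in iP+A and iGPA were 2.69 and 4.18. The Myc folds were 23.9, 15.4, 18.3 and 32.2 in that same order of lists. The start of Stat3, a cytokine signalling factor, had Flag folds of 2.69, 4.94, 7.96 and 13.3 and Myc folds of 5.23, 4.49, 5.09 and 9.004, with no Gfi1 peak.

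**Figure D2:**
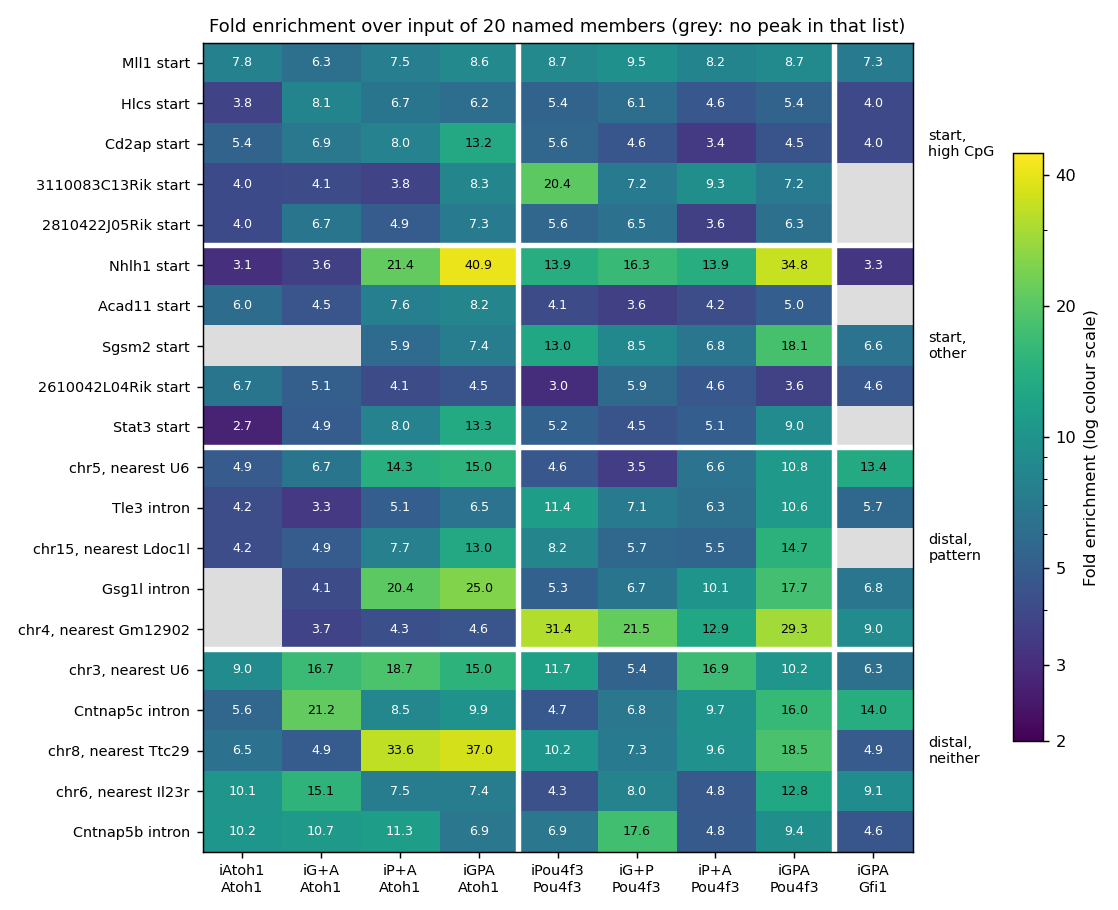
Rows are the 5 highest-ranked members of each of 4 classes, short tandem repeats left out, and columns the 9 lists. Each cell gives the fold enrichment of the strongest kept peak, coloured on a log scale, and grey means no kept peak. Mll1 was even across the lists, from 6.27 to 9.52, while Nhlh1 ran from 3.05 to 40.9.

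Gene lists were counted by members within 1000 bp of a start. Of 35 hair cell genes 0 had one, which allows a share of up to 10.0%, of 34 neuronal genes Nhlh1 had one, and of 24 Notch pathway genes Maml3, a Notch co-activator. Tcf4, an E protein and partner of Atoh1, was 1 of 7 E protein and Id genes. By comparison, 337 of 22380 protein-coding genes, or 1.51%, had a member at a start, so the count for hair cell genes is not set apart from the background. Among the sets of broadly expressed genes, 6 of 80 ribosomal protein genes did (Rpl5, Rpl13, Rpl27, Rpl32, Rps10 and Rps14), 3 of 14 translation factors (Eef1b2, Eef2 and Eif4a2) and 2 of 27 splicing and RNA binding genes (Hnrnpu and Srsf4). Of 70 replication-dependent histone genes there were 3, of 22 immediate early genes Jund and of 13 heat shock genes Dnajb1. These are counts beside a background, with no test of the lists, most of which are small.

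The induced genes themselves held members in their exons. A site at the Pou4f3 gene, chr18:42554837-42555649, had peaks in 8 lists and lacked only the Myc list of iPou4f3. A site at Gfi1, chr5:108150415-108150918, had peaks in 7 lists, with folds from 3.01 to 5.72, and lacked iAtoh1 and iG+P. An exon site at Atoh1, chr6:64679281-64679798, had 6 lists, 4 Flag and 2 Myc, and was not a member. In lines that carry the induced copy, its reads cannot be told apart from those of the endogenous exon here. The Pou4f3 site also had Flag folds of 2.69 in iAtoh1 and 3.07 in iG+A, lines induced without Pou4f3. The Gfi1 site had Myc folds of 3.45 in iPou4f3 and 4.19 in iP+A, lines induced without Gfi1, and a Flag fold of 3.01 in iP+A. The Atoh1 site had no peak in iPou4f3 or iG+P, the lines without Atoh1. The source of these peaks was not tested.

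The standing of the Pou4f pattern depended on the sites compared. It was present at 32.2% of the 590 distal members, against 24.3% of distal sites in 1 list and 38.2% in 4 to 6 lists. The member share was 7.92 points above the first (4.24 to 11.8) and -6.01 points from the second (-9.76 to -2.04). Against sites in 5 or 6 lists, starts included, the shares were 23.4% and 23.5%, with a difference of -0.0215 points (-2.94 to 3.07). For distal sites in 8 or more lists the difference from 1 list was -0.786 points (-6.37 to 5.88). Windows 1000 bp from the distal members held the pattern at 10%. A strict E-box was present at 10.8%, with 9.34% in 1 list, and the difference of 1.51 points had an interval of -0.780 to 4.29. The AP-1 pattern (TGANTCA), read by Jun and Fos, was scarcer at distal members, at 3.73% against 7.65% in 1 list, a difference of -3.93 points (-5.22 to -2.05). The Gfi1 pattern, AATCACAGC in one form and AATCACTGC in the other, was present at 8 members, 0.864%, near the 0.833% of sites in 1 list, the 0.604% in 4 to 6 lists and the 0.648% of the members' flanking windows. All 8 had a Gfi1 peak, and 0 of the 532 members without one had it, which allows up to 0.691%. Of the 8, 5 were in the set of 128, whose sites met the rule only through their Gfi1 peak. Sites with the same tagged lists but no Gfi1 peak were left out by the rule. The split is therefore a description, and whether the pattern goes with a Gfi1 peak was not tested.

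The 128 members with Flag peaks only in lines with Pou4f3 differed from the 209 members with all 8 tagged lists. The Pou4f pattern was present at 60.9% (51.9% to 69.4%) of the former and 14.8% of the latter, a difference of 46.1 points (35.9 to 55.1). The loose E-box was present at 75.8% and 55.02%, a difference of 20.8 points (10.3 to 30.2). Near-start sites made up 9.38% and 38.3%. Windows 1000 bp from the 128 held the Pou4f pattern at 6.64% and the loose E-box at 33.2%, below the central shares in both cases.

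Each pattern was also frequent without Gfi1, and whether both occurred at the same sites there was not measured. At 573 sites with the same 6 tagged lists but no Gfi1 peak, just outside the rule, the Pou4f pattern was present at 55.8% and the loose E-box at 67.9%. Neither interval of the difference left 0 (5.09 points, -4.45 to 14.1, and 7.89 points, -1.01 to 15.6). At the 5123 sites with 4 Myc lists and no other, the Pou4f pattern was present at 65.2% (difference -4.22 points, -13.0 to 3.90), while the loose E-box was present at 26.5%, 49.3 points lower (41.1 to 56.0).

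Both patterns occurred together at 62 of the 128 members, 48.4% (39.5% to 57.4%), with a median spacing of 36.5 bp between their centres. Both occurred at 14 of the 209 members with all tagged lists, 6.70%. The summits followed the patterns of their own factor. In the 128, the Flag summit lay a median of 12 bp from the nearest loose E-box, found within the searched window at 98 of them, and 29.5 bp from the Pou4f pattern. The Myc summit lay 13.5 bp from the Pou4f pattern and 37 bp from the loose E-box. The Gfi1 summit lay 35 bp from the E-box and 31.5 bp from the Pou4f pattern. In the Ccl1 intron shown above, the Flag folds were 7.10 in iP+A and 14.8 in iGPA, the Myc folds 8.20, 8.32, 7.81 and 17.0 in the order given, and the Gfi1 fold 14.1.

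**Figure D3:**
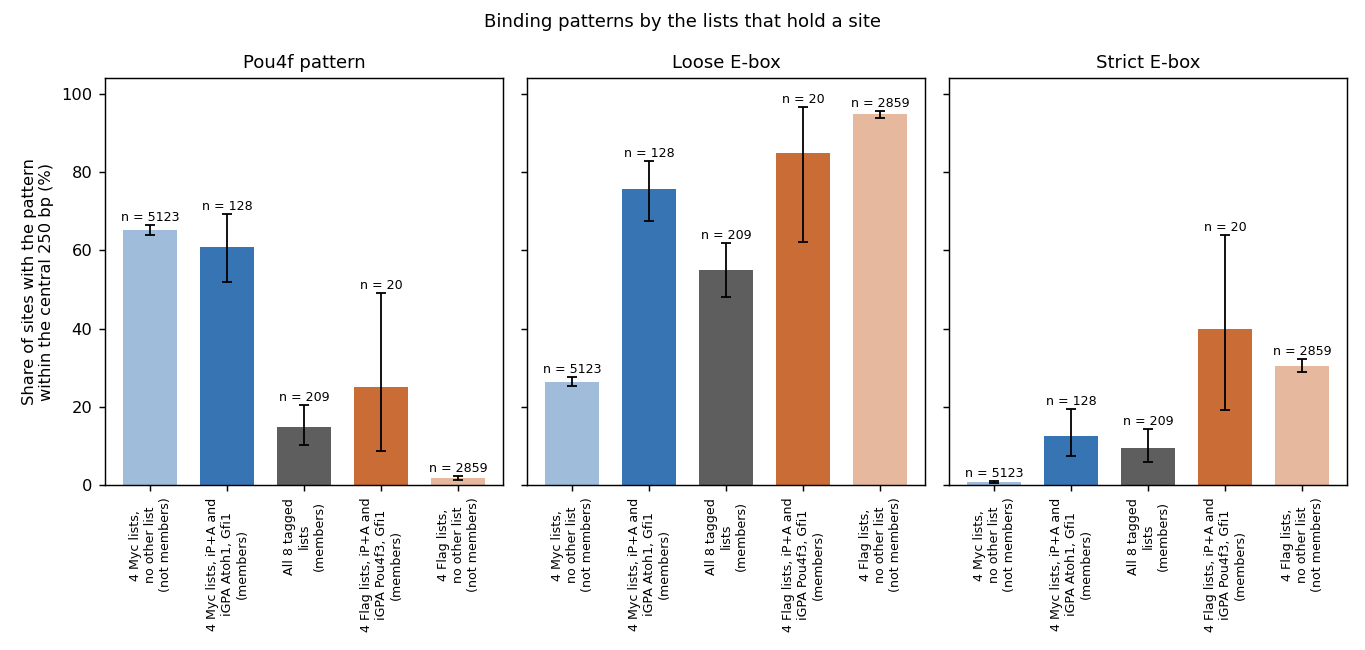
Bars give the share of sites in percent (y axis) with each pattern in the central 250 bp, in 3 panels for 5 sets of sites named by their lists (x axis), and error bars are exact 95% intervals. The Pou4f pattern was at 65.2% of sites with Myc lists alone and 60.9% of the set of 128, while the loose E-box went from 26.5% to 75.8%.

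In the 20 members with Myc peaks only in lines with Atoh1, a strict E-box was present at 40% (19.1% to 63.9%), 30.4 points above the 209 members with all tagged lists (11.7 to 52.0), and a loose E-box at 85%. The 2859 sites with 4 Flag lists and no other held the strict E-box at 30.6%, and the difference of 9.43 points had an interval from -8.77 to 30.8. They held the loose E-box at 94.8%, above the 20 members (-9.82 points, -30.9 to -0.0212). With 100 bp searched in place of 250 bp the strict E-box difference was 8.78 points (-1.82 to 30.0). None lay near a start, which for 20 sites allows a share of up to 16.8%. The Pou4f pattern was present at 5 of the 20, or 25%, against 1.71% of the sites with 4 Flag lists alone, a difference of 23.3 points (9.46 to 45.2). Against the 209 members the Pou4f difference was 10.2 points (-4.68 to 32.4). Of 33 sites with the same 6 tagged lists but no Gfi1 peak, just outside the rule, 1 (3.03%) held the Pou4f pattern. The difference was 22.0 points (3.48 to 44.0). These 33 held the strict E-box at 24.2% and the loose E-box at 84.8%, and 18.2% lay near a start. The 20 met the rule only through Gfi1, and whether the pattern goes with a Gfi1 peak was not tested. The Flag summit lay a median of 5 bp from the nearest loose E-box, found at 17 of the 20, and the Myc summit 9 bp, found at 16. In the 5 with a Pou4f pattern around the Myc summit, that summit was a median of 19.5 bp from it. In each of these 5 the Myc summit lay nearer to the Pou4f pattern than to any loose E-box found. In the set of 128 the Myc summit was also nearer to the Pou4f pattern, by the medians.

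The Flag signal in these 20 was the stronger of the 2. The median Flag folds were 7.27, 11.3, 10.6 and 19.7 in iAtoh1, iG+A, iP+A and iGPA, and the Myc folds 3.17 and 4.37 in iP+A and iGPA. At the Dnahc2 intron, a gene for an axonemal dynein chain, the Flag folds were 43.9, 51.8, 45.7 and 72.1 and the Myc folds 4.75 and 5.68. In the 128 the balance was less one-sided, with median Myc folds of 5.88, 5.69, 5.77 and 11.5 and Flag folds of 4.73 and 6.77.

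**Figure D4:**
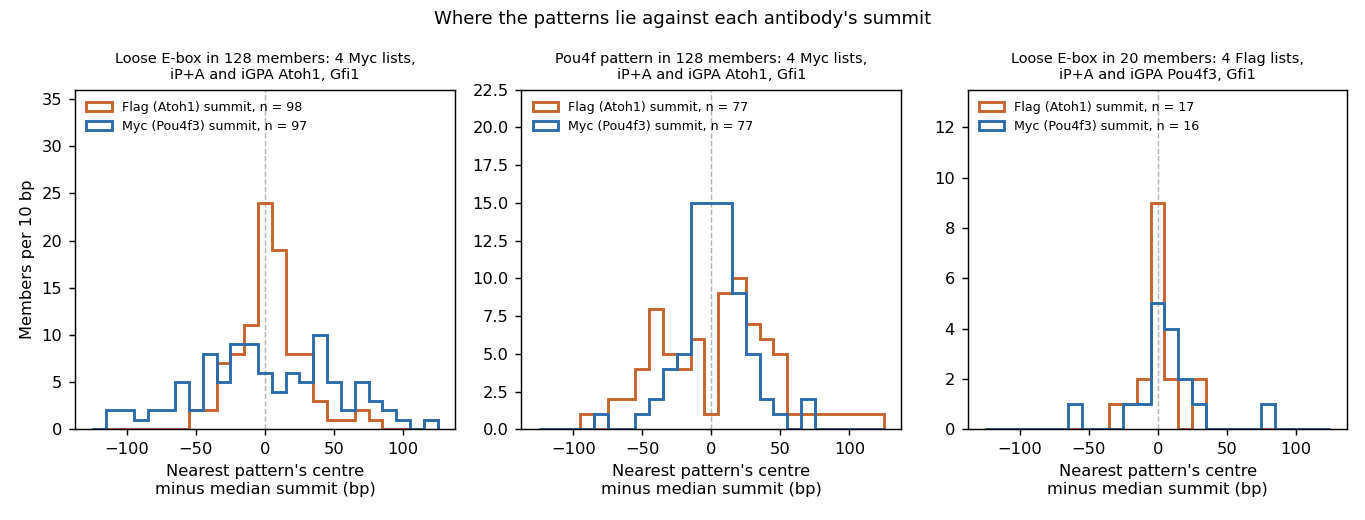
The x axis is the position in bp of the nearest pattern centre relative to the median Flag (orange) or Myc (blue) summit, and the y axis the number of members per 10 bp. In the 128 members the Flag summits gathered at the loose E-box, at a median of 12 bp, and the Myc summits at the Pou4f pattern, at 13.5 bp. For the 20 members only the loose E-box is plotted, and both summits lay close to it. The Pou4f pattern around the Myc summit, found at 5 of the 20, is not plotted.

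Of the 926 members, 557 had both a Flag peak in iAtoh1, where no Pou4f3 was induced, and a Myc peak in iPou4f3, where no Atoh1 was induced. A strict E-box, a Pou4f or a Gfi1 pattern was present at 20.1% of them (16.9% to 23.7%), and 43.4% lay near a start. The strict E-box was present at 6.46% and the Pou4f pattern at 15.1%, beside 2.15% and 10.8% of windows 1000 bp away. The Gfi1 pattern went the other way, at 0.359% beside 0.718%. For the 3 patterns combined no share of the flanking windows was computed. The median folds of the 557 were 3.56 in iAtoh1 and 3.32 in iPou4f3, with summits a median of 104.5 bp apart. In the 209 with all 8 tagged lists, 22.0% had any of these patterns, and in the 55 with all 9 lists 21.8%. In the set of 128 the share was 68.0%. The loose E-box by the Flag summit was common to all these sets. It was found at 326 of the 557, at a median of 18.5 bp and within 25 bp at 59.8% of them, and at 142 of the 209, at 17 bp and within 25 bp at 66.9%. In the set of 128 it was within 25 bp at 74.5% of the 98.

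Members with and without a Gfi1 peak met the rule in different ways. Of the 394 with a Gfi1 peak, 143, 67 and 42 had only 6 tagged lists, in 3 combinations, and reached 7 through Gfi1, while the 532 without needed 7 or 8 tagged lists. The shares of the 2 groups are therefore given as descriptions. A start lay near 25.1% of the 394 and 44.5% of the 532, the Pou4f pattern was present at 31.0% and 17.9%, and the loose E-box at 58.4% and 48.3%.

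A further 349 members, 37.7%, were distal with neither a strict E-box nor a Pou4f pattern, the largest of the 5 classes. This class held 39.7% of sites in 4 to 6 lists, 45.1% in 2 or 3 lists and 53.1% in 1 list. It was thus not particular to the members. The median folds of the 349 lay between 3.46 and 4.18 in every list. Over these 349 the ranks of the Flag and Myc folds rose together, with a Spearman rho of 0.43 and a Pearson r of 0.44. Over the 229 high-CpG starts the values were 0.08 and 0.08. Spearman rho was 0.73 over the 13 short tandem repeats and 0.26 over the 228 distal members with a pattern. It was -0.12 over the 107 other starts and 0.28 over all 926 members. These are descriptions across sites of merged libraries from partly the same lines, and sites are not replicates. Among the 5 named sites of this class, the chr8 site nearest to Ttc29 differed in form. Its Flag folds were 6.47 and 4.94 in iAtoh1 and iG+A, and 33.6 and 37.0 in iP+A and iGPA. Of the set of 128, which had no Flag peak in iAtoh1 or iG+A, 36 members were also in this class.

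The highest-ranked of this class shared sequence with each other. At the chr3 site the Flag folds were 9.02, 16.7, 18.7 and 15.0, the Myc folds 11.7, 5.40, 16.9 and 10.2 and the Gfi1 fold 6.30. High values in every list are what the ranking picks. In the Cntnap5c intron the values were 5.58, 21.2, 8.48 and 9.85, then 4.72, 6.83, 9.75 and 16.0, and 14.0 for Gfi1. Its local background was 5.68 times the usual value of the lists.

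Both belong to a family of 20 members on 11 chromosomes that hold the same run of 24 bases.
Shared run: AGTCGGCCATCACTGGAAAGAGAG

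This run has 28192 exact copies in the genome, and no repeat annotation was used to name it. It was found at 7 of the 55 sites in all 9 lists, 12.7% (5.27% to 24.5%), at 6 of 241 in 8 lists and at 7 of 630 in 7 lists. It was found at 0.5% of sites in 6 lists, 0.111% in 4 lists and 0.182% in 1 list. Of the 20 members, 18 had a Gfi1 peak, beside 42.5% of all members and 3.81% of all joined sites. Some of the 18 had only 6 tagged lists and met the rule only through Gfi1, so this count is a description. None of the 20 lay near a start and none had a strict E-box or a Pou4f pattern. The run was searched for because it recurred in members, so its share in them is a description.

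**Figure D5:**
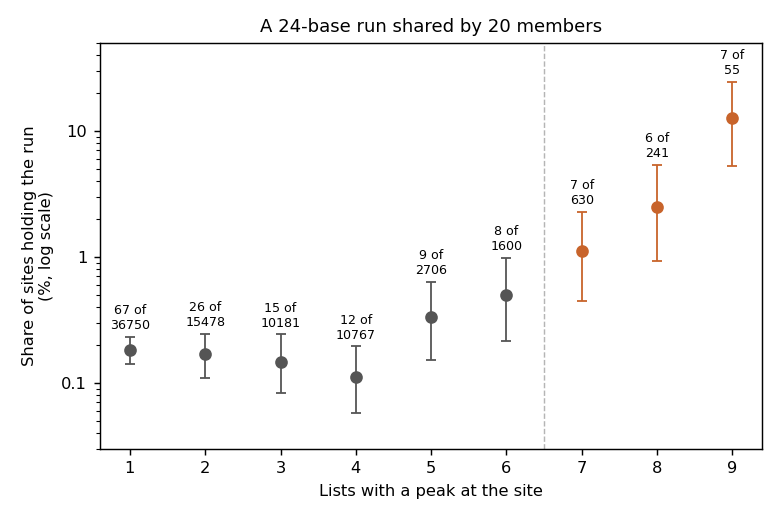
Points give the share of joined sites that hold the 24-base run, in percent on a log axis (y), by the number of lists with a peak (x), with exact 95% intervals and counts. The share was 0.182% at 1 list and 12.7% at the 55 sites in all 9 lists.

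Other runs recurred too. An uninterrupted CA repeat of 24 bases was present at 20 members, 2.16%, and at 1.93% of sites in 1 list. A GA repeat was present at 9 members. The 6 members on chromosome 8 that shared a further run lay near copies of 5S rRNA genes, and 10 sites that were not members held that run as well. Another 6 members shared a run found at no other site and nowhere else in the assembly. These runs were also picked because they recurred in members.

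Short tandem repeats, where at least 80% of 100 bp repeat a unit of up to 12 bp, held 13 members, 1.40% (0.7496% to 2.39%), against 1.04% of sites in 1 list (difference 0.362 points, -0.230 to 1.3498). The difference was 0.787 points against sites in 4 to 6 lists (0.189 to 1.78) and 0.661 against those in 5 or 6 (0.00443 to 1.67). Away from starts it was 0.963 points against 1 list (0.0424 to 2.50). Their Flag and Myc summits lay a median of 2.5 bp apart, closer than in the other classes. Of the 13, 8 had a background at least 2 times the usual.

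The background of each peak, recovered from its fold and p, was on median at least 2 times the usual value of the lists at 6.37% of members (4.89% to 8.14%), 1.34% of sites in 4 to 6 lists and 0.310% of sites in 1 list. It was 20% (10.4% to 33.0%) of the 55 sites in all 9 lists. It was 0 of the 128, which allows up to 2.84%. A member needs several calls, and the background enters each call, so these shares are descriptions.

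Duplicated DNA held part of the members. Another copy, at least 800 of 1000 bp at 90% identity, existed for 108 members, 11.7% (9.67% to 13.9%), against 6.07% of sites in 1 list, and the 95% interval of the difference ran from 3.67 to 7.84 points. Against sites in 5 or 6 lists the difference was 0.655 points (-1.49 to 3.06). In all, 97 members had at least 5 others within 100 kb and formed 7 dense groups. The largest held 25 members between chr4:146618706 and 146990964, 24 on chromosome 13 around the prolactin family genes Prl2c2 and Prl2c3, and 22 between chr4:145060708 and 145761534. Their median highest folds were 4.76, 4.27 and 4.91. Without the 177 members in dense groups or with another copy, 749 remained, and 41.9% of them were near a start. Whether the sequence of these lines differs in copy number from the assembly was not tested.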

How the data were processed

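The members, gene lists and patterns were chosen with earlier results of these data known. Per the study's methods and the labels, the authors used Trimmomatic for trimming, Bowtie 2 for alignment to mm9 and Picard for duplicate removal. Reads of low mapping quality and blacklisted places were dropped. Peak calling used MACS 2, each merged ChIP set against its merged input. Versions are not given in the sources used here. The fold enrichment in the deposited files is a ratio of pileup to local background at the summit, and the deposited −log10 p comes from the same program. The deposited summit lists carry a signal column of unstated definition, which was not used. They keep a part of the called peaks, and how it was selected is not given in the sources used here. The list named for 3 factors was read as iGPA. No column of per-sample values was left unused (0 columns). The files give no read totals, so depth is unknown apart from the usual local background recovered from fold and p, 3.55 fragments for Gfi1 and 5.87 to 8.3 for the other lists. Fewer weak sites can pass in a shallower list.

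Windows of 300 bp were joined by chaining, so wide sites can hold separate summits. The centre was the median summit. Starts, exons and types came from GENCODE in the NCBIM37 assembly, the same as mm9. Patterns were searched on both strands in 250 bp at the centre and in 2 flanking windows 1000 bp away. In total 19 were searched. They were the strict and loose E-box, any E-box as CANNTG, the Myc E-box as CACGTG, the Pou4f pattern with and without a mismatch, the Gfi1 pattern, the CCAAT box by its name, the GC box as GGGCGG, the ETS pattern as CCGGAAG, the CRE as TGACGTCA, the AP-1 pattern as TGANTCA, the YY1 pattern as AAGATGGCG, the TATA box as TATAAA, the B box as GTTCGANNC, and the NRF1, CTCF, ZNF143 and RFX patterns by name. E-box forms overlap each other. Of all 37273 gene starts, 29.6% held the loose E-box, 1.61% the strict E-box and 4.66% the Pou4f pattern. A match is not proof of binding. Other copies were found with minimap2 2.31.

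Named sites were the 5 of each class with the highest mean percentile of fold over the lists, and every member at a start of a gene in a list. Single sites in short tandem repeats are not reported here. Sites of the sets of 128 and 20, the comparison sets outside the rule and the recurrent runs were chosen after their values were seen. Shares have exact Clopper-Pearson 95% intervals and differences Newcombe 95% intervals. No p-value was computed, since lists were merged and sites are not replicates. Scripts ran in Python 3.11.15 with scipy 1.17.1 and pysam 0.24.0 and were tested on simulated data. Alternatives were window width, full intervals, all called peaks, a stricter threshold, equal list length, numbers of lists, distance to a start, CpG definition and pattern settings.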

Additional observations from a re-analysis of the deposited data

Results flagged for a closer look

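Calls that the authors left out of their summit lists also fell on members. In 219 of the 1501 cases where a member lacked a list (14.6%), a peak had been called in that list within the member but was not kept. This touched 193 members, 41 of them in dense groups and 43 with another copy. Counting these calls, 112 members instead of 55 would have a peak in all 9 lists. The share was 52.4% of the 21 members missing from iGPA Atoh1, 32.3% of the 195 missing from iGPA Pou4f3 and 1.69% of the 532 missing from Gfi1, and 24.0% of all called peaks were left out. The filter is not stated, and whether it acts on these places was not tested.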

How the results depend on the processing

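The number of members depended on how sites were joined and counted. It was 464 with windows of 100 bp, 1563 with 1000 bp, 3502 with every called peak, 158 under a limit of 10 on −log10 p, 511 with lists cut to equal length, 468 among sites at most 600 bp wide, 2526 for 6 or more lists and 296 for 8 or more. The share near a start was 32.1% within 500 bp, 48.9% within 5000 bp, 32.8% with protein-coding starts only, 32.9% for 6 or more lists, 41.9% without dense or copied sites and 24.6% for sites at most 600 bp wide. High CpG content held 34.2% with the looser definition, and 24.0%, 32.3% and 16.5% under the last 3 of those settings. The strict E-box share was 5.51% with 100 bp searched, 6.91% at the site midpoint, 52.6% with the loose form and 12.8% at most 600 bp wide. For Pou4f the share was 16.3% with 100 bp searched, 3.13% without mismatch, 16.9% for 8 or more lists and 28.8% at most 600 bp wide, and for the Gfi1 pattern 0.324% and 0.338% with 100 bp and with 8 or more lists. Tandem repeats held 3.04% for 8 or more lists and 2.78% at most 600 bp wide. High background was 2.27% at 3 times the usual value, 4.47% and 8.78% for 6 or more and 8 or more lists, 4.41% without dense or copied sites and 10.0% at most 600 bp wide.

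Of 60 differences under alternatives, 49 kept their direction and their side of 0, and 5 reversed. Far from starts, members minus 1 list, the strict E-box difference was -0.800 points with 100 bp searched and 3.97 at most 600 bp wide, the loose E-box 7.09 without copied sites and 12.7 at most 600 bp wide, and Pou4f -0.786 for 8 or more lists. Against 4 to 6 lists the strict E-box difference was -2.54 with 100 bp and 1.77 at most 600 bp wide, and the loose E-box -0.529 with 100 bp, -0.763 for 8 or more lists and 8.62 at most 600 bp wide. For the set of 20 the strict E-box difference was 8.78 with 100 bp searched. The width limit, the limit on copied sites and the differences under other settings were chosen after seeing the data. The cause was not tested, except that fewer lists or windows change the sites by construction.

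No paired analysis was possible because each list was called on merged replicates. For the same reason no replicate was left out. Depth is unknown, and a site missing from a shallow list cannot be told apart from one without binding.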
